A study of Mus musculus with 27 samples.

Results

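The comparison of adult mouse brain with kidney rested on 6 arrays, 3 of brain and 3 of kidney, of the 27 arrays of the series. They were chosen by the tissue in their labels. All 6 came from wild-type male mice of the inbred strain C57BL/6, aged 6 to 8 weeks, with no treatment named, so that the labels of the 2 groups differ in tissue alone. The remaining 21 arrays, 3 each of lung, liver, testis, thymus, spleen, lymph node and bone marrow, entered the fit and served as a reference. Total RNA was hybridised to a custom Affymetrix array that covers glycogenes (enzymes of glycan synthesis and breakdown, sugar transporters, lectins and glycan-bearing proteins) and many growth factor, cytokine and chemokine genes. A single probe set was kept for each of 573 mouse genes. The labels do not state whether the 3 replicates were different animals, and p-values therefore measure only the spread between arrays. In bulk tissue, fewer cells of a type and less RNA per cell cannot be told apart.

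Brain and kidney use the glycan machinery in different ways. Neurons and myelinating cells carry much of their glycan as glycolipids, namely complex gangliosides, built on lactosylceramide by stepwise addition of galactose, N-acetylgalactosamine and sialic acid, and galactosylceramide with its sulfated form, sulfatide. The proximal tubule of the kidney takes up filtered proteins by endocytosis and breaks them down in lysosomes, where exoglycosidases and sulfatases remove sugars one at a time. Fut9, which makes the Lewis x epitope, and Ugt8a, which makes galactosylceramide, are known for products in both organs.

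Values are deposited intensities, given in the order of replicates 1, 2 and 3. Differences are brain minus kidney on the log2 scale ± SE from limma, and a gene was called at a Benjamini-Hochberg adjusted p under 0.05 over the 573 genes with a difference of at least 1. By this rule 27 genes (4.71%) were higher in brain and 58 (10.1%) higher in kidney, 85 (14.8%) in all. With quantile normalization the split was 41 and 55. At any size of difference, 220 genes (38.4%) had an adjusted p under 0.05, and 248 of the 573 an unadjusted p under 0.05 in limma. Counts of list members called, or under that unadjusted p, are read beside these counts over all genes. The median difference over all genes was -0.02 and the median absolute difference 0.23. Across genes, which are not independent replicates, correlations of log2 values were 0.931 to 0.984 within brain, 0.972 to 0.981 within kidney and 0.666 to 0.740 between them. The plot of brain against kidney means shows this asymmetry: 13 genes were higher in kidney by 2 or more on the log2 scale, against 5 in brain.

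**Figure D1:**
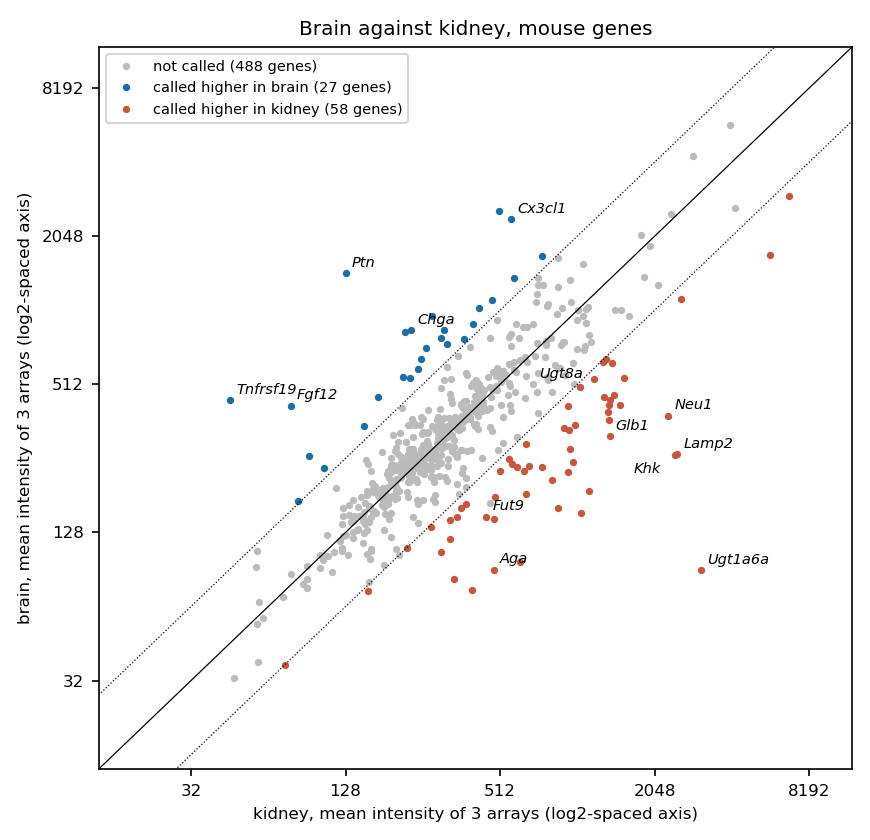
Mean deposited intensity of 573 mouse genes in 3 kidney arrays (horizontal) and 3 brain arrays (vertical), both on log2-spaced axes. The solid line marks equal levels and the dotted lines a difference of 1 on the log2 scale. The 58 genes called higher in kidney lie on or below the lower dotted line, as far out as Ugt1a6a, and the 27 called higher in brain lie on or above the upper one, as far out as Ptn. The 1 grey point below the lower line is Reg1, whose log2 difference was -0.96 ± 0.38.

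The arrays were not alike in their controls. Actb 3′ control signal was 19563.7 to 20759.7 on the brain arrays and 20021.6 on kidney replicate 1, but 8409.6 and 8631.4 on kidney replicates 2 and 3, and Gapdh followed the same split (8489.8 and 9809.6 against 16897.4 to 22431.3). Bacterial bioB spike-in signal was 756.5 to 1011.9 on those 2 arrays and 399.8 to 571.4 on the other 4. Median levels of the mouse genes were close, from 280.6 to 311.4. With kidney replicate 1 as the sole kidney array, a choice made after seeing the data that assumes its spread is like that of the other tissues, 27 genes were higher in brain and 60 in kidney. Human probe sets on the array gave a rough level of cross-species background, with a median of 205.0 and a 95th percentile of 539.6 on the 6 arrays. The lower tissue lay below that median for 8 of the 27 genes higher in brain and 22 of the 58 higher in kidney, and their folds are ratios of signals, not exact ratios of transcripts.

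The tissue labels were set against marker genes. All 8 measured neuron markers had positive differences by their chosen probe sets (median 0.86), with summed intensities of 5692.1 to 6282.0 in brain and 2461.5 to 2541.5 in kidney. Of these, Cx3cl1, Chga and Fgf12 were called. The other 5 were not: the brain proteoglycan neurocan (Ncan) differed by 0.62 ± 0.09, the sodium channel regulator Fgf13 by 0.94 ± 0.11, the neurotrophin receptors Ntrk2 and Ntrk3 by 0.78 ± 0.23 and 0.13 ± 0.10, and the oligosialyltransferase St8sia3 by 0.37 ± 0.10. Ntrk2 passed the rule without brain replicate 1 (1.20), as did Fgf13 (1.04). The other Ntrk3 probe set gave -0.03 ± 0.18. Brain had the highest mean of all tissues for the other neuron markers, but not for Ntrk3 or St8sia3. Ntrk3 had 485.5 in brain against 622.1 in lymph node, and St8sia3 had 896.0 against 1041.2 in testis. The 2 measured oligodendrocyte markers, Mag and Ugt8a, and the 2 astrocyte markers were not called. Mag, the myelin-associated sialic acid-binding lectin, had 933.1, 857.1 and 1000.9 in brain and 541.8, 506.6 and 449.4 in kidney, a difference of 0.90 ± 0.10 just under the size threshold. Its other probe set gave a mean of 1212.9 in brain against 196.7 in kidney (2.63 ± 0.11). The astrocyte genes Bcan (brevican) and Fgfr3 differed by 0.49 ± 0.16 and 0.26 ± 0.15. Both probe sets gave little contrast between tissues. The Bcan mean was 1352.7 in brain, 1326.4 in spleen and 890.5 in thymus, the lowest. Fgfr3 had 280.6 in brain, 302.1 in testis, the highest, and 180.3 in spleen, the lowest. The array held 2 kidney epithelium markers: Bmp7, a growth factor needed for nephron formation, was higher in kidney (-1.17 ± 0.13), whereas the podocyte glypican Gpc5 lay higher in brain (0.73 ± 0.10, not called).

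The largest differences in brain were those of Ptn, Tnfrsf19, Fgf12, Phactr1 and Cx3cl1. Pleiotrophin (Ptn), a heparin-binding growth factor that also binds chondroitin sulfate proteoglycans, had 1776.5, 1092.2 and 1481.6 in brain and 136.0, 132.8 and 116.1 in kidney. The brain arrays were all far above the kidney arrays, and the difference was 3.47 ± 0.15, or 11.1-fold (limma adjusted p = 6.36e-15). Tnfrsf19, a receptor of the tumour necrosis factor family, had 484.0, 292.1 and 544.0 against 49.0, 57.6 and 30.0, a difference of 3.28 ± 0.23 (9.68-fold, limma adjusted p = 2.24e-11). Its kidney levels lay well below the median of the human probe sets. Fgf12, which binds voltage-gated sodium channels inside the cell, had 513.1, 244.2 and 499.3 against 76.4, 67.7 and 90.6 (2.35 ± 0.20, 5.11-fold). Phactr1, a regulator of protein phosphatase 1 and actin, had 2919.0, 2452.3 and 2419.1 against 548.5, 524.1 and 452.3 (2.35 ± 0.23, 5.11-fold). Brain replicate 2 was the lowest brain array for Ptn, Tnfrsf19 and Fgf12 and stayed above every kidney array.

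Fractalkine (Cx3cl1), a membrane-anchored chemokine made by neurons, had 2280.1, 2452.7 and 2486.9 in brain and 611.0, 579.1 and 506.7 in kidney, a difference of 2.09 ± 0.09 (4.26-fold, limma adjusted p = 8.75e-15). Its receptor Cx3cr1, named here after its values were seen and made in brain by microglia, had 499.3, 529.3 and 575.3 against 315.1, 307.5 and 308.2 (0.78 ± 0.10), groups that did not overlap but a difference under the size threshold. Of 6 measured microglia and macrophage markers, Cx3cr1 was the 1 with a positive difference. The other 5 had negative ones (list median -0.54). Peg3, a paternally expressed zinc finger gene, differed by 1.92 ± 0.18 with brain arrays from 580.1 to 1035.5 and kidney arrays from 184.8 to 283.5. Chga, the secretory granule protein chromogranin A, differed by 1.88 ± 0.12 (790.1 to 892.7 against 228.8 to 233.9). The chemokine Ccl27a, whose probe sets may not separate it from its near-identical copies, differed by 1.80 ± 0.16, and the insulin-like growth factor binding protein Igfbp2 by 1.44 ± 0.11. Of the 29 measured chemokines, Cx3cl1, Ccl27a and Cxcl14 were higher in brain and Cxcl12, the ligand of Cxcr4, higher in kidney (-1.76 ± 0.20). Over all genes, 4.71% were called higher in brain and 10.1% in kidney. Cxcl14 (1.06 ± 0.15) fell under the threshold without brain replicate 1 (0.91).

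**Figure D2:**
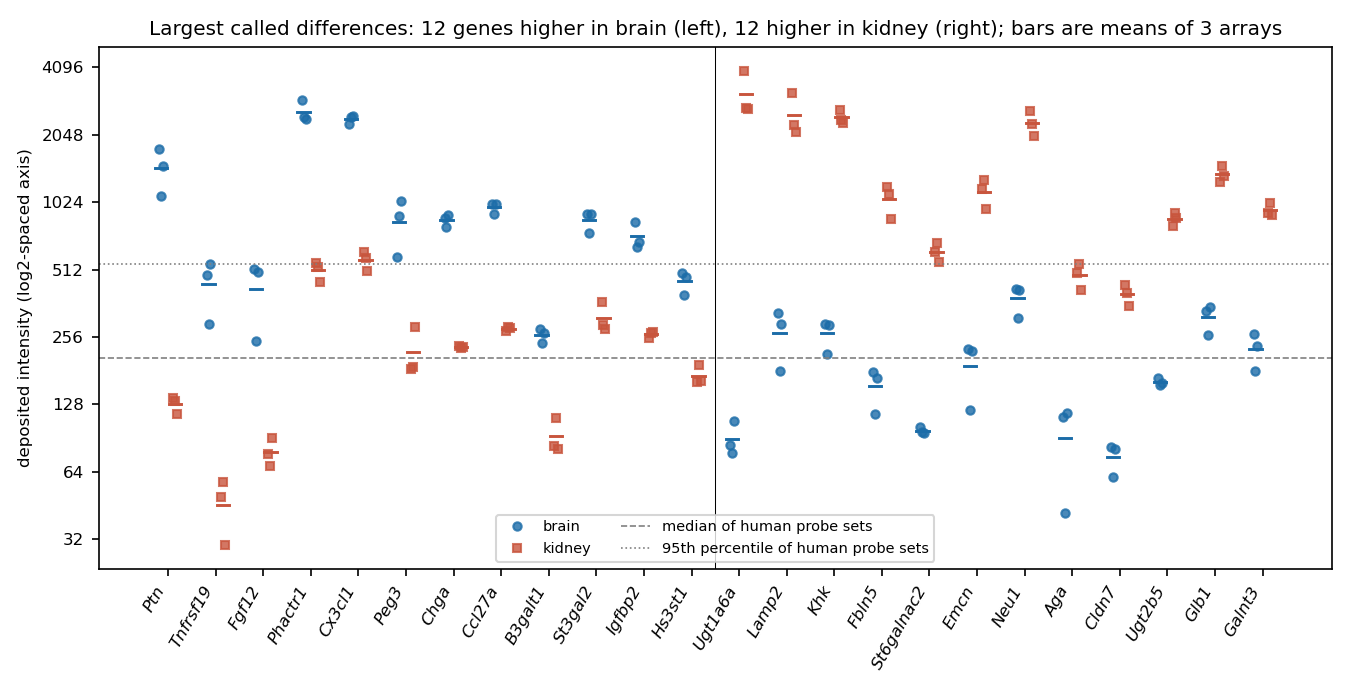
Deposited intensity on each of 3 brain arrays (circles) and 3 kidney arrays (squares) for the 12 genes with the largest called differences in each direction, on a log2-spaced axis with bars at the means. The dashed and dotted lines mark the median (205.0) and 95th percentile (539.6) of the human probe sets. No gene has overlapping groups, and several of the lower groups, such as Ugt1a6a in brain and Tnfrsf19 in kidney, lie below the dashed line.

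Of the glycan lists, that of glycosphingolipid synthesis had the highest median difference. Of 16 measured genes of glycosphingolipid synthesis, 3 were called higher in brain and none in kidney, with a median difference of 0.58 beside -0.02 over all genes, which had 4.71% and 10.1% called. At an unadjusted p under 0.05 in limma and any size, 10 lay higher in brain and 1 in kidney, beside 248 of all 573 genes in either direction. St3gal2, a sialyltransferase that caps gangliosides, had 906.1, 743.3 and 906.6 in brain against 366.2, 287.9 and 276.2 in kidney (1.46 ± 0.17, limma adjusted p = 1.37e-07). Its other probe set differed by 0.44 ± 0.15, and the mean of both sets lost the call (0.95). B4galnt1, which commits gangliosides to the complex series, had 534.0, 520.1 and 593.7 against 222.4, 206.7 and 211.1 (1.36 ± 0.13, limma adjusted p = 1.15e-08). Kidney was lower for B4galnt1 than all 21 arrays of the other tissues. Brain ranked 6 of 9 tissues for it, with a mean of 549.3 against 1323.0 in spleen, the highest. B4galt6, a lactosylceramide synthase, had 686.0, 759.7 and 801.7 against 352.3, 297.3 and 305.4 (1.24 ± 0.10, limma adjusted p = 6.85e-10).

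The other 13 genes of the list were not called. Some, named after their values were seen, had brain arrays that all lay above the kidney arrays. The GM3 synthase St3gal5 had 1291.9, 1320.7 and 1287.3 in brain and 762.9, 756.1 and 739.5 in kidney (0.79 ± 0.11). The sialyltransferases St8sia5 (0.76 ± 0.10) and St6galnac5 (0.74 ± 0.20), the globoside synthase B3galnt1 (0.90 ± 0.20) and the glucosylceramide synthase Ugcg (0.71 ± 0.12) also had adjusted p under 0.05. With quantile normalization 7 of the 16 genes were called, the added ones being St3gal5 (1.32), St6galnac5 (1.26), B3galnt1 (1.12) and St8sia5 (1.01). The lactosylceramide synthase B4galt5 (0.09 ± 0.10) and B3galt4 (-0.08 ± 0.13), the galactosyltransferase that follows B4galnt1 in making complex gangliosides, had overlapping groups, and the GD3 synthase St8sia1 lay slightly higher in kidney (-0.30 ± 0.09). Neuron markers were higher in the same arrays, as given above, and their part in these differences was not tested.

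Other transferases were called in both directions, with counts to be read beside 4.71% of all genes in brain and 10.1% in kidney. Of 18 sialyltransferases, St3gal2 and the polysialyltransferase St8sia4 were higher in brain and St6galnac2, which sialylates O-glycans, higher in kidney, with a median of 0.23. St8sia4 had 251.3, 165.6 and 283.7 in brain against 110.3, 121.2 and 85.1 in kidney (1.13 ± 0.18) and lost its call without brain replicate 3 (0.97) or kidney replicate 3 (0.98). Its brain mean of 233.5 lay below those of bone marrow (1425.2), lymph node (1305.7), spleen (1225.2), thymus (730.2) and lung (604.6). The other polysialyltransferase, St8sia2, had overlapping groups (0.08 ± 0.10). St6galnac2 had 97.4 ± 3.6 (SD, n = 3) in brain against 615.8, 673.0 and 554.6 in kidney (-2.65 ± 0.21, limma adjusted p = 2.05e-10). Of 12 galactosyltransferases, B3galt1 (1.52 ± 0.16), which makes type 1 chains, and B4galt6 were higher in brain, and B4galt1, the main enzyme of N-acetyllactosamine, higher in kidney (-1.47 ± 0.18). B4galt1 in brain, at 138.5, 87.9 and 136.0, lay below all arrays of the other 7 tissues.

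Of 23 genes of glycosaminoglycan synthesis and sulfation, 3 were higher in brain and none in kidney (median 0.21), beside 4.71% and 10.1% of all genes. With an unadjusted p under 0.05 in limma, 10 lay higher in brain and 3 in kidney, beside 248 of all 573 genes in either direction. Hs3st1, a heparan sulfate 3-O-sulfotransferase, had 492.9, 394.2 and 473.9 in brain against 160.2, 191.3 and 161.7 in kidney (1.41 ± 0.14, limma adjusted p = 1.95e-08). Extl2, an exostosin-like transferase, differed by 1.36 ± 0.13, and the 6-O-sulfotransferase Hs6st2 by 1.02 ± 0.17. The latter, with means of 171.3 in brain and 83.7 in kidney, lay below the human probe set median in both tissues. It lost its call without brain replicate 1 (0.94) or brain replicate 3 (0.96) and, narrowly, without kidney replicate 3. Another 6-O-sulfotransferase, Hs6st1, named after its values were seen, lay on the other side at 536.0, 484.0 and 516.5 in brain and 1116.1, 1006.5 and 845.9 in kidney (-0.94 ± 0.14, under the size threshold). Among 4 sulfotransferases acting outside glycosaminoglycans, Chst2, which sulfates N-acetylglucosamine, was higher in brain (1.26 ± 0.13).

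Of 24 proteoglycan core proteins, none was called in brain and 5 in kidney, with a median of -0.05, beside 4.71% and 10.1% of all genes. At an unadjusted p under 0.05 in limma, 6 lay higher in brain and 7 in kidney, beside 248 of all 573 genes in either direction. Bgn (biglycan), a small leucine-rich proteoglycan of connective tissue, had 422.4, 276.6 and 401.4 in brain against 1627.7, 1448.4 and 1000.7 in kidney (-1.88 ± 0.20, limma adjusted p = 3.65e-08). The glypican Gpc4 followed (-1.24 ± 0.17), with serglycin, Srgn (-1.17 ± 0.21), decorin, Dcn (-1.01 ± 0.21), and the collagen Col14a1 (adjusted p = 2.12e-05 in limma), which had 122.8, 96.0 and 114.4 against 214.9, 254.1 and 198.9 and sat at the size threshold. Srgn lost its call without brain replicate 2 (-0.89), Dcn without kidney replicate 2 (-0.83), kidney replicate 1 (-0.96), brain replicate 2 (-0.97) or brain replicate 3 (-0.98), and Col14a1 without brain replicate 2 (-0.90) or kidney replicate 2 (-0.90). Summed stromal and smooth muscle markers, a list that holds Bgn and Dcn, were 1921.8 to 2508.7 in brain and 2968.9 to 4345.6 in kidney, with 2 of 7 called, and their part in the proteoglycan differences was not tested. The brain lecticans were not called either: Ncan and Bcan are given above, Vcan had overlapping groups (-0.02 ± 0.10) and Acan differed by 0.41 ± 0.10.

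**Figure D3:**
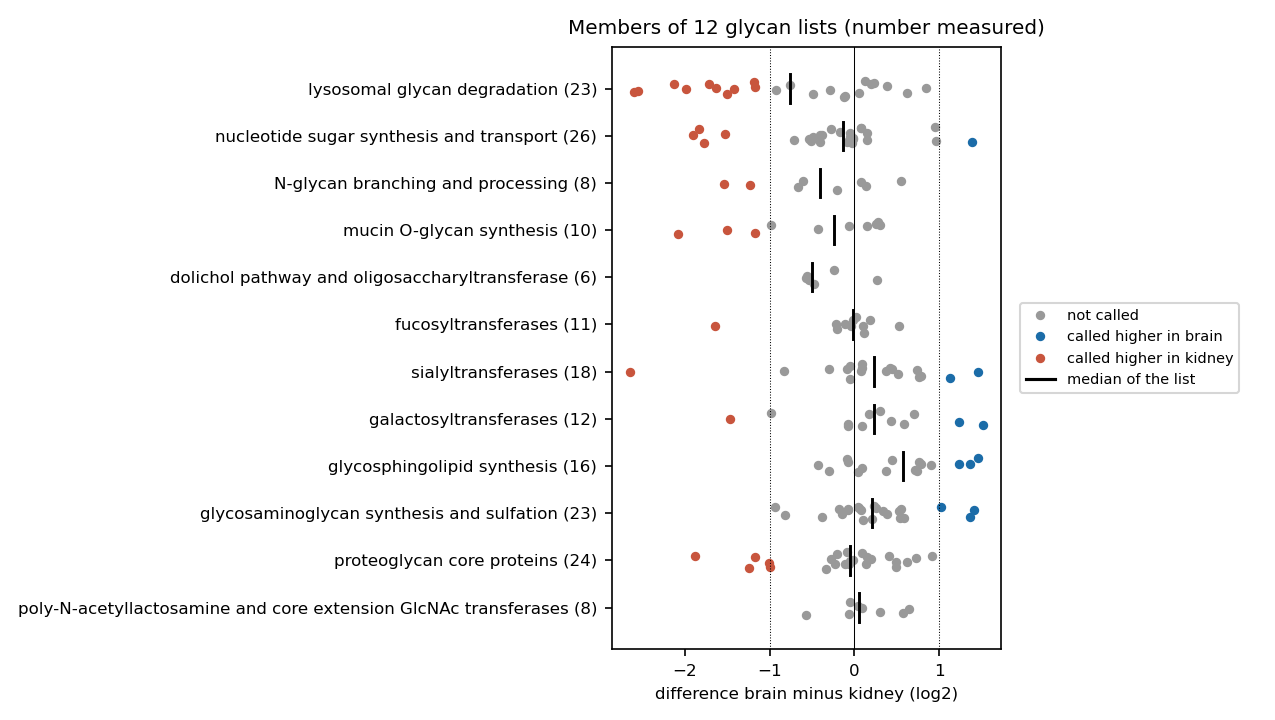
Difference of brain minus kidney on the log2 scale (horizontal) for each measured member of 12 glycan gene lists (rows, number measured in brackets). Grey points were not called, blue points were called higher in brain, red points higher in kidney, the dotted lines mark differences of 1 and black bars the list medians, which run from -0.76 for lysosomal glycan degradation to 0.58 for glycosphingolipid synthesis.

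The largest differences in kidney were those of Ugt1a6a, Lamp2, Khk, Fbln5, St6galnac2, Emcn and Neu1. Ugt1a6a, a UDP-glucuronosyltransferase that conjugates phenolic compounds, had 84.1, 77.8 and 107.7 in brain and 3960.7, 2685.4 and 2657.6 in kidney. It showed the largest difference of all 573 genes, -5.10 ± 0.24 or 34.2-fold higher in kidney (limma adjusted p = 1.84e-14), with a brain signal below every other tissue and below the human probe set median. Ugt2b5 differed by -2.42 ± 0.38 and the olfactory Ugt2a1 was not called. Ugt1a and Ugt2b probe sets may bind transcripts of related family members. Ketohexokinase (Khk), the first enzyme of fructose breakdown, had 292.2, 214.3 and 288.7 against 2656.2, 2393.0 and 2302.9 (-3.22 ± 0.17, 9.32-fold). Cldn7, a tight junction claudin of epithelia, had 82.6, 60.4 and 80.6 against 437.0, 402.1 and 352.6 (-2.42 ± 0.17).

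Fbln5 and Emcn were also among the 12 largest differences in kidney. The elastic fibre protein Fbln5 had 178.9, 116.2 and 167.4 in brain and 1196.6, 1109.5 and 859.5 in kidney (-2.79 ± 0.19). The endothelial sialomucin endomucin (Emcn) had 226.3, 121.0 and 220.6 against 1168.5, 1289.6 and 949.7 (-2.63 ± 0.17). Emcn was the sole called gene of 8 endothelial markers, whose sum was 1523.8 to 1906.9 in brain and 2761.8 to 3319.9 in kidney. Pecam1, another defining marker, had 68.2, 87.8 and 85.1 against 155.8, 182.5 and 136.5 (-0.98 ± 0.16) and passed the rule without brain replicate 2 (-1.04), brain replicate 3 (-1.02) or kidney replicate 3 (-1.08). The part of endothelium in these differences was not tested. Of 17 vascular and platelet-derived growth factors and receptors, Vegfa was called, with 289.8, 388.4 and 343.3 in brain and 1127.7, 756.5 and 850.4 in kidney (-1.41 ± 0.21). Of 16 integrin subunits, the common beta subunit Itgb1 was called (-1.53 ± 0.19). Both counts stand beside the 10.1% of all genes called higher in kidney.

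Lysosomal glycan degradation was the list with the most calls. Of 23 measured genes, 10 were higher in kidney and none in brain, beside 10.1% of all genes, and 16 of the 23 had negative differences (median -0.76). At an unadjusted p under 0.05 in limma, 14 lay higher in kidney and 4 in brain, beside 248 of all 573 genes in either direction. Of the called genes, Neu1, Glb1 and Ctsa encode proteins that form a complex in the lysosome: a sialidase, a beta-galactosidase and the protective protein cathepsin A. Their promoter windows are shown because these genes were called together. They come from RefSeq on build GRCm38.p6, each with 250 bases before and 50 after the gene's start, 5′ to 3′. Capitals mark the letters TCACGTG, the core of the CLEAR element that transcription factor TFEB binds at many lysosomal genes, searched on both strands together with the overlapping reverse complement CACGTGA. The Neu1 window lies at chr17:34931003-34931302, that of Glb1 at chr9:114400828-114401127 and that of Ctsa, 1 of its 2 windows, at chr2:164833523-164833822, all on the plus strand. Where a gene had several windows, 1 that held these letters was taken first. The Ctsa window was thus not chosen blind to them, and its other window is not shown.
Neu1: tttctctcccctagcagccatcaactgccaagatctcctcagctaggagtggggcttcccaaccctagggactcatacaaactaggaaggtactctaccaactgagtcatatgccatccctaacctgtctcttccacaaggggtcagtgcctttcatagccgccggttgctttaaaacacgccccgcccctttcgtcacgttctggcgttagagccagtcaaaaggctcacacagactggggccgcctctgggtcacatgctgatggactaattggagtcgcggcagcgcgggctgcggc
Glb1: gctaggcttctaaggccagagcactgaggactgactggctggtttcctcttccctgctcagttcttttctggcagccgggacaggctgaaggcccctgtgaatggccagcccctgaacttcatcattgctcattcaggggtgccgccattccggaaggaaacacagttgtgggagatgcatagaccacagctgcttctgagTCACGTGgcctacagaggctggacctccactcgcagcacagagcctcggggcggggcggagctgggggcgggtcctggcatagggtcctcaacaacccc
Ctsa: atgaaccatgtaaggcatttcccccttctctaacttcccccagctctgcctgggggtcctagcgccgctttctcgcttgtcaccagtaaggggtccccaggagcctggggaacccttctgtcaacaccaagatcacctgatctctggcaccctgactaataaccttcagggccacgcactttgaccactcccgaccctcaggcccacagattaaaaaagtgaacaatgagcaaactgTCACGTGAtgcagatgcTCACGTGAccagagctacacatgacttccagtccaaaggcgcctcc
The letters stood in the Glb1 and Ctsa windows and not in that of Neu1, which says only that these letters are absent from this window. They contain the general E-box CACGTG. Of the 10 called lysosomal genes 8 were in the promoter table and 2 of these held the motif, and of the 13 not called all were in the table and 5 held it (Gla, Gaa, Arsa, Sgsh and Naglu), beside 4.29% of all 27025 genes. A match is a description of letters and not a binding site.

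The members of the complex differed in size of effect. Neu1 had 419.3, 311.3 and 415.3 in brain and 2605.7, 2278.4 and 2031.2 in kidney, the largest difference on the list (-2.60 ± 0.15, 6.06-fold, limma adjusted p = 2.07e-12). Glb1 had 333.0, 260.5 and 349.3 against 1261.2, 1490.1 and 1344.0 (-2.13 ± 0.15, 4.37-fold, limma adjusted p = 4.54e-11). Ctsa, named with the remaining list members after their values were seen, had 1197.1, 1104.7 and 1112.7 against 2835.3, 2538.0 and 2367.1 (-1.18 ± 0.16, 2.26-fold). Groups were apart for all 3. The glycosylasparaginase Aga, which cleaves the link of N-glycans to asparagine, had 112.4, 41.6 and 117.4 in brain against 492.7, 540.2 and 415.7 in kidney (-2.55 ± 0.27). Its brain signal was lower than on any array of the other 7 tissues, while its kidney signal was above them all, the 1 called gene of which both held.

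Sulfatases, mannosidases and glycolipid-degrading genes made up the rest. Galns, the sulfatase of keratan sulfate and chondroitin 6-sulfate, had 254.2, 235.3 and 254.5 in brain against 1025.7, 891.1 and 1026.0 in kidney (-1.98 ± 0.12, limma adjusted p = 2.07e-12). The alpha- and beta-mannosidases Man2b1 and Manba differed by -1.71 ± 0.17 and -1.50 ± 0.20, and the beta-glucuronidase Gusb by -1.17 ± 0.14. The galactosylceramidase Galc, which degrades the product of Ugt8a, had 172.5, 173.6 and 188.5 against 640.9, 360.2 and 468.4 (-1.42 ± 0.18). The GM2 activator Gm2a had 432.5, 383.3 and 506.4 against 1156.9, 1658.5 and 1287.8 (-1.63 ± 0.28). Degradation was not higher in kidney throughout. The acid alpha-glucosidase Gaa, which breaks down glycogen, had 1385.4, 1191.5 and 1316.2 in brain and 734.2, 674.3 and 750.8 in kidney (0.85 ± 0.11, under the size threshold), and the iduronate sulfatase Ids differed by 0.62 ± 0.17. Hexa, Hyal1, Gla, Sgsh, Idua and Neu3 had overlapping groups.

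Lysosomal genes outside the list were mixed, and apart from Lamp2 those given here were named after their values were seen. The membrane glycoprotein Lamp2 had 328.5, 179.6 and 293.5 in brain against 3150.4, 2264.2 and 2103.4 in kidney (-3.25 ± 0.25, 9.53-fold, limma adjusted p = 2.05e-10). Lamp1 had 3738.3, 2366.1 and 2867.0 against 11197.1, 4610.8 and 4598.2 (-1.08 ± 0.25). Its kidney level split like the Actb control, so that the size of this difference, just past the threshold, leaned on kidney replicate 1. The acid lipase Lipa had 497.0, 408.0 and 490.7 against 1821.6, 1232.0 and 1213.8 (-1.59 ± 0.16). Asah1, the acid ceramidase (-0.56 ± 0.17), the cystine transporter Ctns (-0.47 ± 0.10) and the acid sphingomyelinase Smpd1 (0.20 ± 0.15) were not called. With kidney replicate 1 as the sole kidney array the lysosomal list again had 10 calls.

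**Figure D4:**
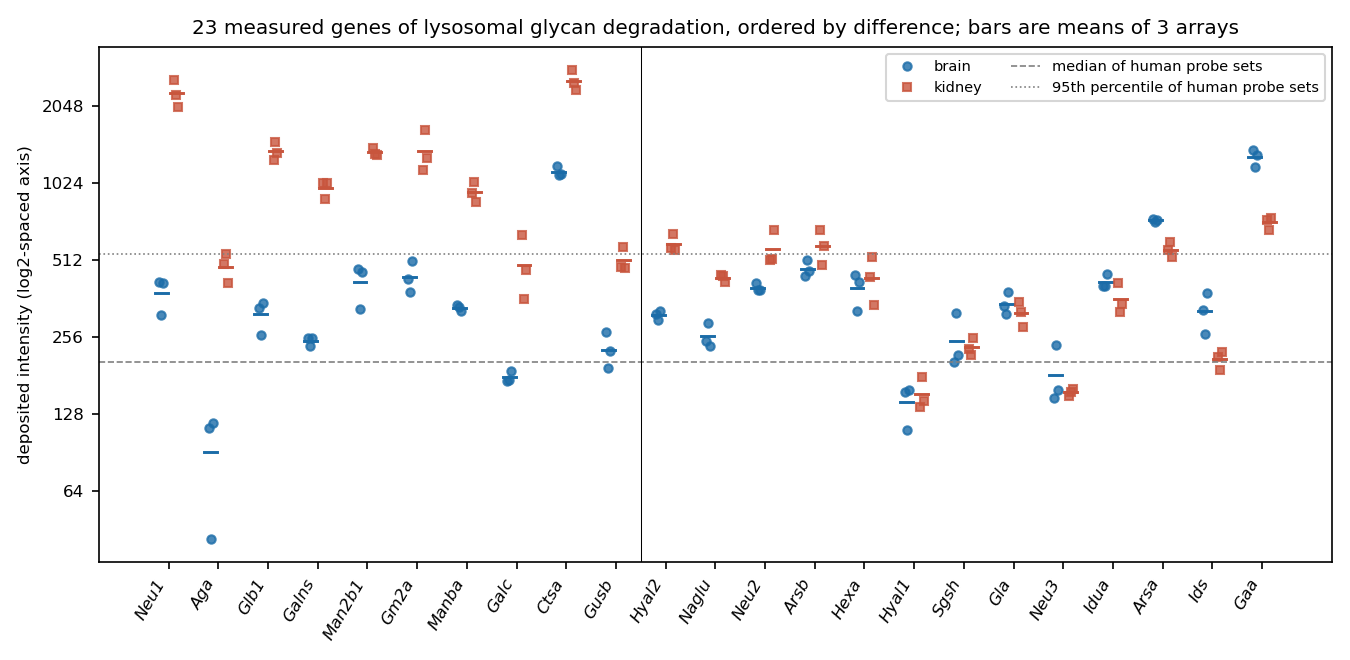
Deposited intensity on 3 brain arrays (circles) and 3 kidney arrays (squares) for the 23 measured genes of lysosomal glycan degradation, ordered by difference on a log2-spaced axis with bars at the means. The vertical line parts the 10 genes called higher in kidney, from Neu1 to Gusb, from the 13 not called, of which Gaa, Ids and Arsa lie higher in brain on all arrays.

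Of 26 measured genes that make or transport nucleotide sugars, 4 were higher in kidney and 1 in brain (median -0.13), counts near the shares of all genes called (10.1% and 4.71%). Papss2, which makes the sulfate donor PAPS, had 198.5, 229.1 and 201.9 in brain against 1047.3, 880.5 and 522.2 in kidney (-1.90 ± 0.20). Renbp, an N-acetylglucosamine epimerase, differed by -1.83 ± 0.12, the UDP-N-acetylglucosamine transporter Slc35a3 by -1.77 ± 0.12, and Ugdh, which makes the UDP-glucuronic acid used by the Ugt enzymes, by -1.53 ± 0.20. Outside the list, and named after their values were seen, the sialic acid lyase Npl (-1.49 ± 0.16) and the glucosamine-6-phosphate deaminase Gnpda1 (-1.17 ± 0.12), which break amino sugars down, were higher in kidney as well. Npl acts on the sugar that the sialidase Neu1 releases. Pmm1, a phosphomannomutase known for its brain expression, was the 1 higher in brain (1.39 ± 0.14). In N-glycan processing Mgat2 (-1.54 ± 0.21) and Man2a1 (-1.23 ± 0.15), consecutive enzymes on the way to complex N-glycans in the Golgi, were higher in kidney among 8 measured genes. In mucin-type O-glycan synthesis Galnt3 (-2.08 ± 0.17) and Galnt1 (-1.50 ± 0.19), which add the first sugar, and the core 2 enzyme Gcnt1 (-1.17 ± 0.13) were higher in kidney among 10. The counts of these short lists stand beside the 10.1% of all genes called higher in kidney. The core 1 enzyme C1galt1 was just outside the threshold at -0.98 ± 0.17. None of 6 genes of the dolichol pathway and oligosaccharyltransferase was called, although their median was -0.50 and 3 lay higher in kidney at an unadjusted p under 0.05 in limma. None of 8 genes on the list of poly-N-acetyllactosamine and core extension transferases was called (median 0.06, 3 at an unadjusted p under 0.05 in limma). That list also holds the glucuronyltransferase B4gat1 and Ogt. Over all 573 genes, 248 had an unadjusted p under 0.05 in limma, in either direction.

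Growth factor genes were called in both directions, with counts to be read beside the 4.71% of all genes called in brain and 10.1% in kidney. Of 12 neurotrophins, heparin-binding neurite factors and their receptors, Ptn was the 1 called. Among 16 insulin-like and epidermal growth factor genes, Igfbp2 and Igf2 (1.25 ± 0.12) were higher in brain. Higher in kidney were the hepatocyte growth factor receptor Met (-1.34 ± 0.11), Igf1r (-1.15 ± 0.23), Igf1 (-1.08 ± 0.19), Igfbp5 (-1.08 ± 0.19) and Egfr (-1.02 ± 0.12). Apart from Met these lay near the threshold: Igf1r was -0.98 without brain replicate 1, Igf1 -0.96 without brain replicate 2 and -0.99 without kidney replicate 2, and Egfr -0.96 without kidney replicate 2, while Igfbp5 narrowly missed the threshold with median centring. Igf1, with means of 74.3 in brain and 156.4 in kidney, lay below the human probe set median in both tissues. Of 26 fibroblast growth factor genes, Fgf12 was called in brain and Fgfr4 in kidney (-1.17 ± 0.11). Of 30 genes on the TGF-beta superfamily list, Bmp1 (1.24 ± 0.17) and Gdf1 (1.16 ± 0.18) were higher in brain and Bmp7 and Bmp4 in kidney. Despite its name and its place on this list, Bmp1 is a metalloprotease and not a member of that family. The other Gdf1 probe set differed by 3.18 ± 0.09. Bmp4 (-1.07 ± 0.16), with 790.0 on kidney replicate 1 and 474.0 and 405.2 on the others, was -0.79 without that array. Of 22 Wnt ligands and receptors, the Frizzled receptor Fzd4 was called in kidney (-1.66 ± 0.21, and -2.82 ± 0.32 by its other probe set).

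Among immune genes, counts are read beside the 14.8% of all genes called in either direction. None of 33 C-type lectins and collectins, 6 siglecs or 4 galectins was called in either direction at an adjusted p under 0.05 with a difference of 1 in limma. At an unadjusted p under 0.05 in limma and any size, 8, 2 and 2 of them differed, beside 248 of all 573 genes. Of 16 chemokine receptors, Ccr1l1 (-1.55 ± 0.20) and Ccr2 (-1.05 ± 0.25) were higher in kidney. Ccr2 had 48.8, 22.5 and 40.5 in brain against 70.8, 88.7 and 62.7 in kidney, all far below the human probe set median, and lost its call without brain replicate 2 (-0.72) or kidney replicate 2 (-0.91). Summed markers of microglia and macrophages overlapped, at 720.2 to 974.1 in brain and 708.7 to 865.4 in kidney, as did those of T cells, B cells and neutrophils. The microglia and macrophage sum includes Cx3cr1, higher in brain, beside 5 markers with negative differences. Outside the lists, and named after their values were seen, the class II invariant chain Cd74 (-1.85 ± 0.20), the lymphotoxin receptor Ltbr (-1.75 ± 0.18) and the cytokine Il15 (-1.19 ± 0.19) were higher in kidney. The interleukin 6 family receptor Lifr was called higher in kidney by its chosen probe set (-2.02 ± 0.19), while its other probe set had the opposite sign (0.29 ± 0.18). Cd83, known as a marker of activated dendritic cells, was higher in brain (1.18 ± 0.18). At levels above the 95th percentile of the human probe sets in both tissues stood 77 genes, of which 9 were called. The closest to equal among them were Lta4h, Csf1, Cd33, Cxcr3 and Atrn, with differences of -0.04 to 0.01. Csf1, the macrophage growth factor, had 592.2, 551.7 and 608.7 in brain and 588.7, 562.1 and 588.3 in kidney, although its other probe set lay higher in brain (0.30 ± 0.10).

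Fut9 and Ugt8a were singled out because both tissues carry their signal, and their levels are therefore a description. Ugt8a had 575.3, 414.5 and 544.1 in brain and 757.5, 685.9 and 613.8 in kidney, against 15.8 to 81.5 on the 21 arrays of the other 7 tissues. Fut9 had 124.2, 117.5 and 203.2 in brain and 539.3, 432.4 and 381.3 in kidney, against 15.4 to 46.7 on those arrays. The brain values of Fut9 were above the other 7 tissues but did not reach the human probe set median. Between brain and kidney, Fut9 was higher in kidney by 3.11-fold (-1.64 ± 0.26, limma adjusted p = 1.37e-05), the 1 called gene of 11 fucosyltransferases. Ugt8a leaned the same way without being called (-0.43 ± 0.25, limma adjusted p = 0.20), and its other probe set gave -0.42 ± 0.19. The groups of Ugt8a did not overlap, yet the difference was less than 2 SE.

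Taking both tissues as one side against the mean of the other 7 gave 12 genes called higher (2.09%), of which 4 also had all 6 arrays above all 21 others (0.698%). Ugt8a and Fut9 are in both counts. They were chosen for this shared signal, so their place there was given in advance and is no test. The others of the 4 were Cx3cl1 and B4gat1. Cx3cl1 was higher by 2.47 on the log2 scale (limma adjusted p = 1.23e-21), with 506.7 as its lowest kidney array and 472.5, in lung, as the highest of the other tissues. B4gat1, a glucuronyltransferase of the laminin-binding glycan on dystroglycan, had 1108.7, 1110.8 and 1100.6 in brain, 765.3, 728.9 and 624.9 in kidney and at most 571.2 elsewhere (1.02, limma adjusted p = 1.02e-10). The shared genes thus ran in opposite orders, with Fut9 called higher in kidney and Cx3cl1 in brain. The other 8 called genes, named after their values were seen, were B3galnt1, Extl2, Fgf12, Igfbp5, Neu1, Papss1, Peg3 and Ptn. Of these, Extl2, Fgf12, Peg3 and Ptn were also called higher in brain than in kidney, and Neu1 and Igfbp5 higher in kidney. The contrast averages brain and kidney, so that a single tissue can carry a call. Kidney means of Ptn, Fgf12 and Peg3 were 128.3, 78.2 and 218.4, below lymph node (187.6), testis (141.9) and lung (221.0) in turn. Brain means of Neu1 and Igfbp5 were 382.0 and 497.4, below lymph node (406.5) and lung (1043.1). For B3galnt1, Extl2 and Papss1 both means were above the other 7 tissues, narrowly for B3galnt1 (389.7 in kidney, 389.3 in testis).

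**Figure D5:**
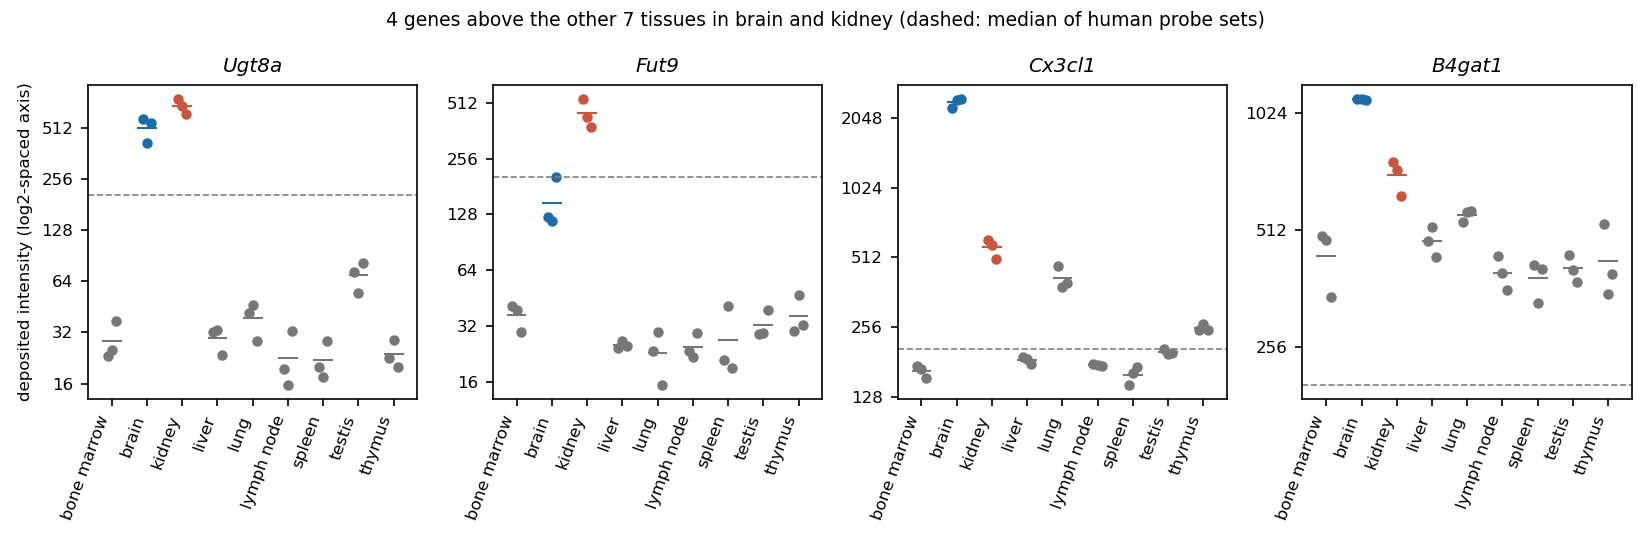
Deposited intensity of Ugt8a, Fut9, Cx3cl1 and B4gat1 in each of 9 tissues, 3 arrays per tissue with a bar at the mean, on log2-spaced axes that differ between panels. Brain (blue) and kidney (red) lie above the 21 other arrays in all 4 panels, and the dashed line marks the human probe set median of 205.0, above the Fut9 arrays of brain.

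Called genes were set against the other 7 tissues. Of the 27 higher in brain, brain was above the 21 other arrays in 13, kidney below them in 1 and neither held for 13. Of the 58 higher in kidney, kidney was above the 21 others in 13, brain below them in 4 (Ugt1a6a, Aga, B4galt1 and Ybx1, the last named after its values were seen) and neither held for 42, with Aga counted on both sides. By tissue means, brain was the highest of 9 for 17 of the 27 and kidney the lowest for 4, while kidney was the highest of 9 for 23 of the 58 and brain the lowest for 22. The same counts over all genes are not given here. A call itself selects for a high level in 1 tissue or a low level in the other. These counts are therefore a description and not a result about the called genes. The threshold cut through a dense range: Col14a1, Dcn (-1.01) and Egfr (-1.02) lay just inside it and C1galt1 (-0.98), Pecam1 (-0.98) and Cd48 (-0.96) just outside. The called genes not yet described, named after their values were seen, were Tsnax (1.30 ± 0.16), Zmat2 (1.27 ± 0.13) and Tmsb10 (1.19 ± 0.18) in brain and S100a10 (-1.02 ± 0.17) in kidney, with Ybx1 (-1.65 ± 0.29). All called genes had groups that did not overlap, as did 21.8% of all genes with brain above and 27.7% with kidney above.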

How the data were processed

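Total RNA of 9 tissues, 3 arrays each, was hybridised to a custom 1-colour Affymetrix array, per the labels. The deposited table holds 1 linear intensity per probe set for 1813 probe sets and 27 arrays. How the authors summarised, background-corrected and scaled these intensities is not given in the sources used here, so values were kept as deposited. Precision is limited by the 3 arrays per tissue.

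Gene names came from the platform annotation (of probe sets, 1563 with 1 symbol, 2 with several, 248 with none) and matched by gene identifier to RefSeq on GRCm38.p6, which updated 1 symbol. The 702 mouse probe sets gave 573 genes, each by the probe set with the highest mean over all arrays. The 839 human probe sets served as background. Values under 16 were raised to 16 (12 mouse values on the 6 arrays) and log2 was taken. A linear model with a mean for each tissue was fitted to all 27 arrays (18 residual degrees of freedom) with limma 3.58.1 under R 4.3.3, and its contrasts were brain minus kidney and the mean of both minus the mean of the other 7 tissues. Folds are powers of 2 of these differences. In data simulated for brain minus kidney over 573 genes, the script called 100% of genes changed by 1.5, 2 or 3, 0% of those changed by 0.5 and 0% of 373 unchanged genes. No change close to the size threshold and no difference between arrays was simulated, so this checks the script and not the calls.

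The comparison, gene lists and alternatives were chosen with earlier results of these data known. The rule named the 12 largest called differences per direction with groups apart, Fut9 and Ugt8a, up to 4 called members per list and direction, the 5 smallest differences above background, up to 8 genes high in both tissues, the neuron, glia and kidney epithelium markers, and 3 genes on either side of the size threshold. Title numbers were not taken as pairs, since deviations of same-numbered brain and kidney arrays correlated at 0.124, -0.157 and -0.223. Alternatives were quantile normalization, median centring, a floor of 64, an offset of 16, filters on dim genes, other probe set rules, the 6 arrays alone, trended and robust eBayes, array weights, a replicate block and leaving out each of the 6 arrays.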

Additional observations from a re-analysis of the deposited data

How the results depend on the processing

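Of 65 named called genes, 52 kept their call under every alternative that tested them and none changed direction, while 7 of 19 uncalled ones passed under at least 1 of the 20 alternatives. Quantile normalization gave 41 genes higher in brain, against 27, with 55 higher in kidney. It also gave 7 glycosphingolipid genes higher in brain, against 3, and 8 genes high in both tissues, against 4. Of those 4, Ugt8a and Fut9 had been chosen for this pattern. Leaving out the dimmest genes gave 2 genes high in both tissues, since that filter removed Ugt8a and Fut9 themselves. The cause of the other shifts was not tested. Leaving out 1 array at a time gave 25 to 30 genes higher in brain, 52 to 62 higher in kidney, 3 to 5 high in both, 3 to 4 glycosphingolipid genes and 10 lysosomal genes each time. With the title number as a replicate block, 27 genes were higher in brain and 58 in kidney, as without it. Same-numbered arrays did not deviate together. Kidney replicate 1 as the sole kidney array, chosen after seeing the data, gave 27 and 60. With mean probe sets Igf1r was -0.79, Bmp4 -0.93 and Ccr2 -0.65, and with a floor of 64 Ccr2 was -0.21, none of them called. Array weights were lowest for brain replicate 2 (0.268). Signal near background limits the lower side of 8 genes called in brain and 22 called in kidney, and 112 genes lay below the human probe set median in both tissues.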

Other observations

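Human probe sets gave a separate reading of some genes. Of the 839, 2 were called higher in brain and 5 higher in kidney. Among the 90 that share a symbol with a called mouse gene, 57 had the same sign as the mouse probe set, and 4 were themselves called, all in the same direction: Gpc4 (-1.02), Renbp (-1.31), Vegfa (-1.12) and the actin-binding thymosin Tmsb10 (1.09). Of the 495 with an uncalled mouse gene, 1 was called. It belonged to Itga6, the laminin-binding integrin subunit, and differed by -1.73, while the mouse Itga6 probe set differed by -0.87 and stayed under the size threshold.

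Of the 85 called genes, 22 had another mouse probe set, and 21 of these had the same sign as the chosen one, with 16 also past a difference of 1. The exception was Lifr, the leukemia inhibitory factor receptor, with -2.02 ± 0.19 by the chosen probe set and 0.29 ± 0.18 by the other. Of 213 unnamed probe sets, 2 were called higher in kidney and 0 in brain.

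Ybx1, a cold-shock RNA-binding protein, had 8972.1, 4090.0 and 4244.9 in kidney and 1516.7 to 1897.0 in brain, so that its kidney level split between arrays as the Actb, Gapdh and Lamp1 signals did. The Cd22 level split likewise in kidney (4646.2, 2087.2 and 1957.1), where replicate 1 lay within the brain range of 4055.6 to 4804.4.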
